A study of Mus musculus with 9 samples.

Results

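The Zic genes measured here are Zic1, Zic4, Zic2 and Zic5, and their DNA methylation was read at every measured cytosine inside the 4 gene bodies and 10000 bp to each side (GENCODE vM1 on NCBIM37, the assembly behind mm9). The rule took 391 of the 838481 cytosines of the table, 152 on chromosome 9 around Zic1 and Zic4 and 239 on chromosome 14 around Zic2 and Zic5. It used position only and no methylation level. Levels came from reduced representation bisulfite sequencing (RRBS), in which restriction fragments are treated so that unmethylated cytosine is read as thymine. Preadipocytes of BL6 mice, 8 animals aged 3 weeks, were cultured from the interscapular brown and the inguinal white fat and induced with a cocktail of insulin, dexamethasone, isobutylmethylxanthine and the PPARγ agonist rosiglitazone. The 4 brown libraries were BAT at days 0, 4 and 6 and BAT + NE, day 6 cells after 4 h of norepinephrine, the sympathetic transmitter that activates brown fat. The 5 white libraries were WAT at days 0, 4 and 6 and BWAT, white cells of an independent set differentiated in the presence of norepinephrine, at days 4 and 6. Day 0 is the confluent preadipocyte before induction.

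Each condition was 1 library, and the labels do not say whether each day was a culture of its own. A mean ± SD below is therefore over the 4 brown or the 5 white libraries, and every p-value measures only the spread between these libraries. Brown and white cells came from different depots, so that cell type and body position cannot be told apart. A level is an average over the cells of a culture, so that fewer methylated cells and less methylation per cell cannot be told apart either. The depth behind a level is unknown beyond the authors' minimum of 10 reads. Over all cytosines the libraries of a lineage resembled each other more than those of the other lineage, with Pearson correlations of 0.977 to 0.980 within brown, 0.981 to 0.985 within white and 0.973 to 0.977 between them. At the 391 Zic cytosines the same ranges were 0.865 to 0.915, 0.877 to 0.912 and 0.798 to 0.881. The labels could not be checked against marker expression. The Hoxc9 promoter, which the study itself named on these samples, was called higher in brown.

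Zic proteins are zinc finger transcription factors related to the Gli proteins, the effectors of hedgehog signalling. They pattern the neural tube, the neural crest and the dorsal somites, and the mammalian genes lie in head-to-head pairs, Zic1 beside Zic4 and Zic2 beside Zic5. In fat, Zic1 RNA is a widely used marker of the classical brown depot between the shoulder blades, which arises from somitic mesoderm, and is scarce in inguinal fat. Methylation of CpG dinucleotides near a start is commonly associated with silencing, while that of gene bodies and flanks has no fixed relation to transcription.

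Zic1 (ENSMUSG00000032368.8) occupies chr9:91252896-91260648 on the minus strand. Zic4 (ENSMUSG00000036972.8) runs the other way over chr9:91257251-91284186 and, through its upstream starts, overlaps Zic1. On chromosome 14 Zic5 (ENSMUSG00000041703.7) lies at 122856017 to 122864899 on the minus strand and Zic2 (ENSMUSG00000061524.7) at 122874604 to 122879074 on the plus strand. Parts of Gm5089 and all of the long noncoding gene 2610035F20Rik also lie in the chromosome 14 windows. The measured cytosines fell into 27 fragments, runs with gaps of at most 300 bp, of which 21 held at least 4 cytosines and could be tested and 6 held fewer. Fragments are named by the nearest main start of a member and the distance from it, plus for downstream and minus for upstream in the direction of transcription.

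The sequences below, apart from the last, are shown because they carry clear differences outside exons. Wide differences also lay in exons, at Zic4 +1.6 kb and in the Zic2 3′ UTR, whose sequences are not shown. They are from NCBIM37 (mm9), plus strand, 5′ to 3′, with the measured CpGs in capitals. The first lies upstream of Zic1 and inside an intron of Zic4 at chr9:91261833-91261935. The next ones lie in Zic4 promoter windows within its introns, at chr9:91272234-91272385 and chr9:91277477-91277493. Then follow a stretch between Zic5 and 2610035F20Rik at chr14:122867189-122867271 and one downstream of Zic2 at chr14:122881917-122882207. The last, at chr9:91259646-91259795 in the coding part of the first Zic1 exon, is given as the contrast: it is dense in CpGs and was almost unmethylated in all 9 libraries.
Zic1 −1.3 kb: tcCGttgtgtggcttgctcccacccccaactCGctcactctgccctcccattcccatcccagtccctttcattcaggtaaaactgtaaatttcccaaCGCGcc
Zic4 +8.5 kb: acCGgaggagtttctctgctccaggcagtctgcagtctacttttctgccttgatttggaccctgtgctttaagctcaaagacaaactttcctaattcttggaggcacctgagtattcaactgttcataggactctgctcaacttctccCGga
Zic4 +13.7 kb: acCGggaaagaagCGat
Zic5 −2.3 kb: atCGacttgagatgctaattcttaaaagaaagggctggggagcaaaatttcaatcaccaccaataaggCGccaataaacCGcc
Zic2 +7.4 kb: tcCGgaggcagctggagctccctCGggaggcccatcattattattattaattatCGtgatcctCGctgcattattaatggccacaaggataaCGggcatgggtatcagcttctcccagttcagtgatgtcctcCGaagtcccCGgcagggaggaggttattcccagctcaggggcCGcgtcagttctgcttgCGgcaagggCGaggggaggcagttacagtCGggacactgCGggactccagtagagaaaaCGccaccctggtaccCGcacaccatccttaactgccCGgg
Zic1 first exon: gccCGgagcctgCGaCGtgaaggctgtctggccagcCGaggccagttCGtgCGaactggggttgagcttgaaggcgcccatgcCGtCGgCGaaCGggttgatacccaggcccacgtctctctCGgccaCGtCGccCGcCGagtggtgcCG

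Most of the Zic sequence was lowly methylated in every library, and most of the parts that differed were more methylated in brown cells. A fragment in the first Zic1 exon was called lower in brown. Of the 391 cytosines, 291 were below 30% in all 9 libraries. The mean over the 391 was 14.1, 14.2 and 15.3% in BAT at days 0, 4 and 6 and 15.6% in BAT + NE, against 9.64, 10.95 and 11.7% in WAT and 10.9 and 11.2% in BWAT at days 4 and 6. All 4 brown libraries lay above all 5 white ones. Over the whole table the difference had the opposite sign, with 40.2 to 40.8% in the brown libraries against 40.8 to 41.2% in the white ones.

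The comparison of lineages was fitted with limma on the logit of the fragment level, log2((level + 1)/(100 − level + 1)), with terms for lineage and for day 0 against later days, and p-values were adjusted by Benjamini-Hochberg over all 67233 fragments. Of the 21 Zic fragments, 7 were called higher in brown at an adjusted p below 0.05, where 3.52% of all fragments were, and 1 was called lower, where 5.91% of all were. Without adjustment 12 of the 21 had a p under 0.05, beside 14577 of all 67233. The median logit difference was 0.31 over the 21 and −0.02 over all fragments. Of the 8 calls, 5 held when any 1 library was left out. In the smaller fit of the 6 BAT and WAT libraries with day as a block, 2 of the 8 held, and it called 2.28% of all fragments against 9.43% in the fit of 9 libraries.

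**Figure D1:**
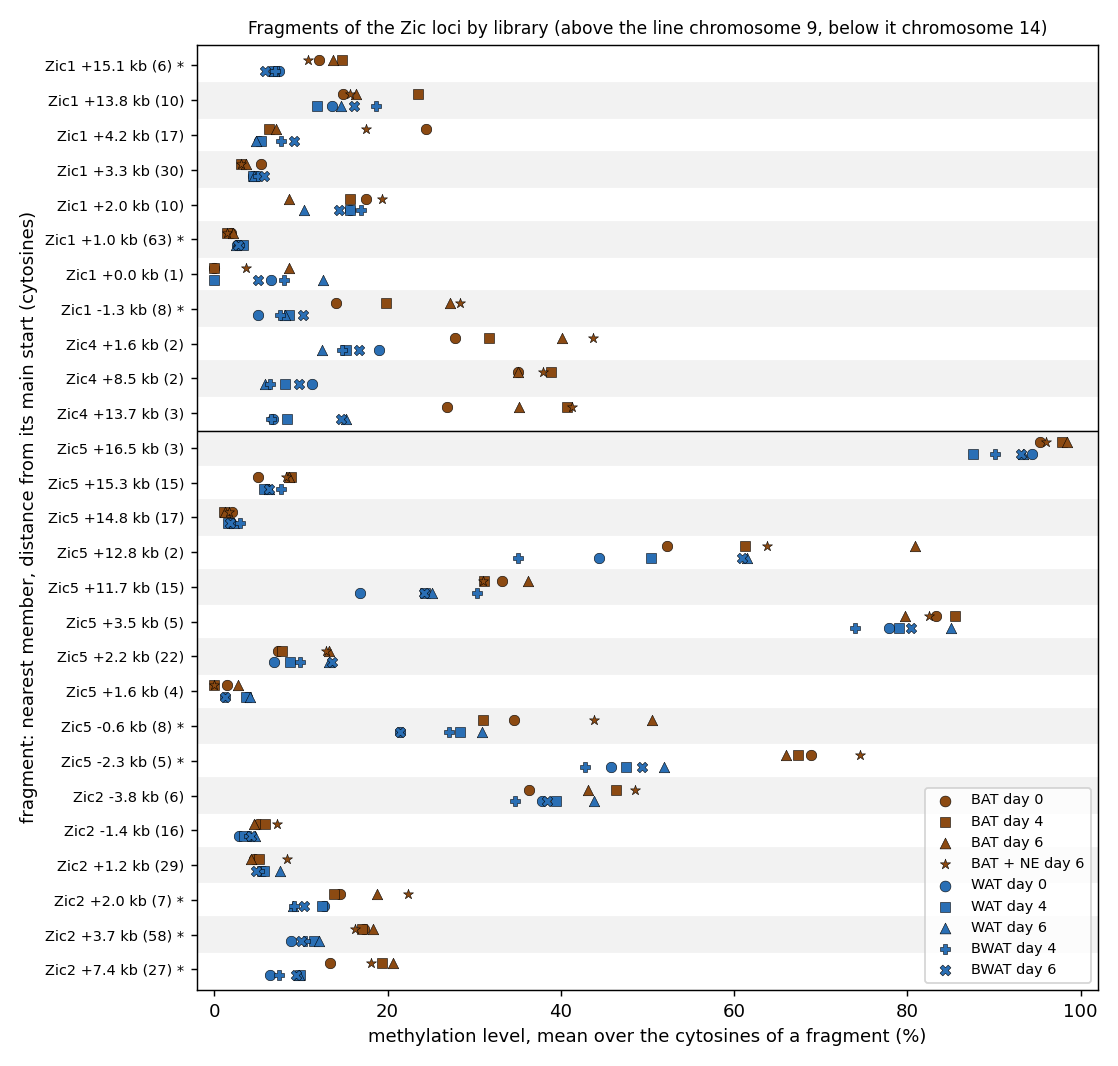
Methylation level (%) of each of the 27 fragments, 1 symbol per library, brown libraries above the white ones in each row. The number of cytosines stands in parentheses and a star marks the 8 fragments past the limma test. The 7 starred fragments that were higher in brown have no brown symbol to the left of a white one. Over all 67233 fragments, every brown library lay above every white one in 4.55% and below in 7.76%.

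At Zic1, the brown fat marker of the set, the clearest difference lay upstream of the gene. The fragment Zic1 −1.3 kb (chr9:91261835-91261933, 8 cytosines of 4 CpGs, in an intron of Zic4) had 14.1, 19.8 and 27.2% in BAT at days 0, 4 and 6 and 28.3% in BAT + NE, against 5.03, 8.59 and 8.16% in WAT and 7.61 and 10.3% in BWAT. The lowest brown library, BAT day 0, stood above the highest white one. The means were 22.4% ± 6.70 in brown and 7.94% ± 1.90 in white (SD, n = 4 and 5 libraries). The logit difference was 1.65 (SE 0.17, limma adjusted p = 0.000285), and it kept an adjusted p of 0.000462 to 0.00181 when any 1 library was left out and of 0.0292 in the fit of 6 libraries.

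All 4 CpGs of that sequence took part. The first capital pair in it, at position 91261835, averaged 20.4% in brown and 2.93% in white, and the pair at 91261864 averaged 13.96% and 1.80%. The CpG at 91261932, in the CGCG near the right end, averaged 32.1% in brown and 16.2% in white, the highest levels of the 4. None of the 8 cytosines lay in a restriction site.

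The body of Zic1 gave a different picture. The first exon, which holds most of the coding sequence, was nearly unmethylated. Its fragment Zic1 +1.0 kb (chr9:91259351-91259947, 63 cytosines) had 1.87, 1.47 and 2.12% in BAT and 1.47% in BAT + NE, against 2.65, 3.32 and 2.46% in WAT and 2.84 and 2.71% in BWAT. Brown was lower in all 4 libraries, by 1.06 points (1.73% ± 0.320 against 2.80% ± 0.322, logit difference −0.49, SE 0.13, limma adjusted p = 0.0478). That call is weak: it was lost when any 1 of 8 libraries was left out, all except BAT day 6, and the adjusted p was 0.0448 to 0.126 over the 9 such fits. It was also lost on the percent scale (limma adjusted p = 0.201) and in the fit of 6 libraries (0.344), and held with no day term (0.0377).

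The single cytosine measured next to the main Zic1 start was at 0, 0 and 8.57% in BAT and 3.704% in BAT + NE, against 6.52, 0 and 12.5% in WAT and 8 and 5% in BWAT. The groups overlapped, and with 1 cytosine the window at that start was not tested. The fragments at +3.3 kb (3.77% in brown and 4.86% in white) and +2.0 kb (15.3% and 14.6%) were not called, with limma adjusted p = 0.250 and 0.973.

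The last exon of Zic1 varied within the brown lineage. The fragment Zic1 +4.2 kb (17 cytosines over the end of the coding sequence and the start of the 3′ UTR) had 24.4, 6.28 and 7.08% in BAT at days 0, 4 and 6 and 17.5% in BAT + NE, against 5.16, 5.41 and 4.78% in WAT and 7.72 and 9.17% in BWAT. BAT day 0 and BAT + NE were high and the other brown libraries lay within the white range. BAT day 0 exceeded every white library at 16 of the 17 cytosines, BAT + NE at 13, BAT day 4 at 1 and BAT day 6 at 2. The lineage difference was not called (13.8% ± 8.73 against 6.45% ± 1.91, limma adjusted p = 0.220), and a difference between lineages in the change after day 0 had an unadjusted p of 0.0457 and an adjusted p of 1.

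Downstream of Zic1, the intergenic fragment Zic1 +15.1 kb (6 cytosines) had 12.1, 14.8 and 13.7% in BAT and 10.9% in BAT + NE, against 7.43, 6.94 and 6.93% in WAT and 6.96 and 5.80% in BWAT. No brown library reached down to a white one, and the means were 12.9% ± 1.73 and 6.81% ± 0.606 (logit difference 0.92, SE 0.14, limma adjusted p = 0.00301, 0.00466 to 0.0124 with 1 library left out, 0.0681 in the fit of 6 libraries). The neighbouring fragment at +13.8 kb, with 17.6% in brown and 14.98% in white, was not called.

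**Figure D2:**
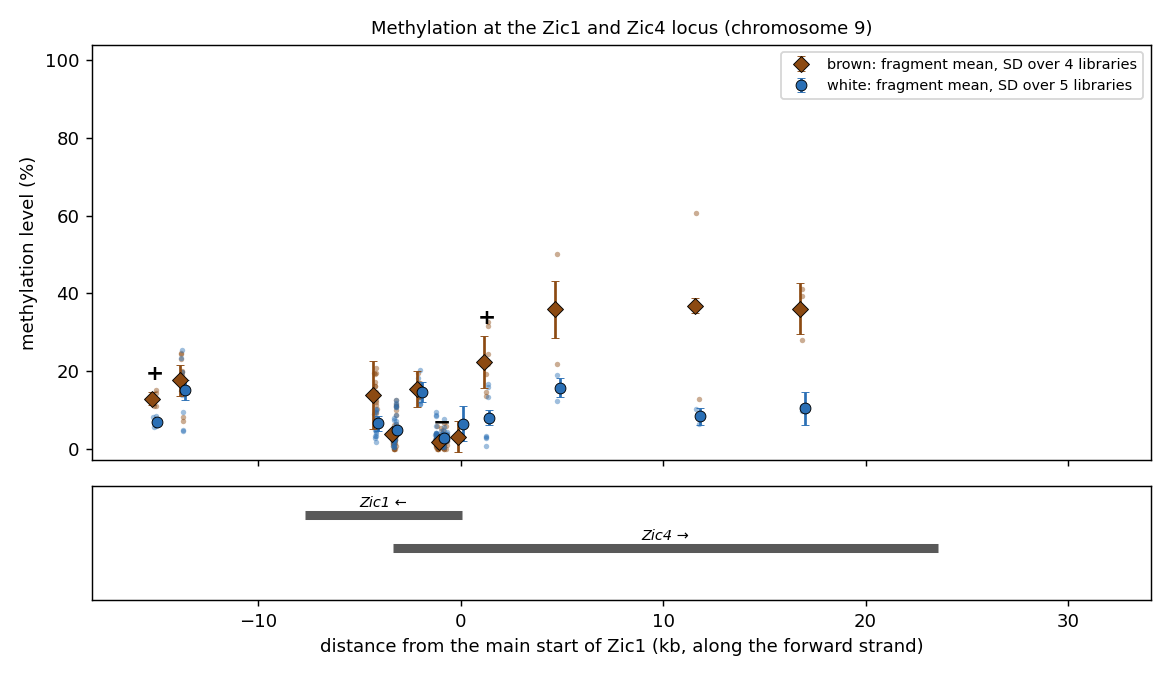
Methylation level (%) along the chromosome 9 locus against the distance from the main Zic1 start (kb), with genes drawn below. Small points are cytosines, diamonds (brown, n = 4 libraries) and circles (white, n = 5) are fragment means with SD, and + or − marks fragments called higher or lower in brown. The 3 fragments inside Zic4, too short for the fragment test, lie at 35.8 to 36.8% in brown and 8.30 to 15.6% in white.

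Zic4, the partner of Zic1 in cerebellar development, held wide differences in 3 fragments of 2 or 3 cytosines within its promoter windows. These were tested as promoters, windows from 1000 bp before to 500 bp after each annotated start, merged where those of a gene overlapped and kept with at least 2 cytosines. Of the 7 Zic promoters, 4 were called higher in brown, where 0.503% of all 15694 promoters were, and 0 were called lower, where 0.867% of all were. Without adjustment 5 of the 7, the 4 called ones among them, had a p under 0.05, beside 1648 of all 15694. The median logit difference was 1.11 over the 7 and 0.01 over all promoters. The main starts of Zic1, Zic4 and Zic2 had fewer than 2 measured cytosines in their windows, so that the tested promoters of these 3 genes belong to other annotated transcripts.

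The promoter at chr9:91272035-91273980 holds the 2 cytosines of Zic4 +8.5 kb. It had 35.0, 38.9 and 35.1% in BAT and 38.0% in BAT + NE, against 11.3, 8.11 and 5.90% in WAT and 6.43 and 9.79% in BWAT. The brown libraries stood together far above the white ones (36.8% ± 1.98 against 8.30% ± 2.25, logit difference 2.57, SE 0.19, limma adjusted p = 0.000375). Most of this came from the CpG at the left end of the printed sequence, at 60.6% in brown and 10.2% in white. The CpG at its right end had 12.9% and 6.36%. Each was measured on 1 strand, and both lie in CCGG, the MspI site at which the fragment was cut.

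At Zic4 +13.7 kb (promoter chr9:91276248-91277748, 3 cytosines) the levels were 26.9, 40.7 and 35.2% in BAT and 41.3% in BAT + NE, against 6.82, 8.39 and 15.2% in WAT and 6.57 and 14.7% in BWAT. The groups did not overlap, and the logit difference was 2.29 (SE 0.27, limma adjusted p = 0.00462). Its CpG outside the restriction site, read on both strands, averaged 40.1% in brown and 10.7% in white, and the promoter was also called without restriction-site cytosines (adjusted p = 0.00156).

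At Zic4 +1.6 kb (promoter chr9:91264842-91266688, 1 CpG in a TaqI site read on both strands) BAT had 27.8, 31.7 and 40.2% and BAT + NE 43.7%, against 19.0, 15.2 and 12.4% in WAT and 14.8 and 16.7% in BWAT. The strands disagreed at day 0, where BAT had 1.41% on the forward strand and 54.2% on the reverse strand, against 13.8% and 24.2% in WAT. Brown averaged 35.8% ± 7.38 and white 15.6% ± 2.45 (logit difference 1.54, SE 0.23, limma adjusted p = 0.0152). Without BAT day 6 the adjusted p was 0.0569 and the call was lost, while the other 3 called promoters held with any 1 library left out. None of the 4 was called in the fit of 6 libraries, which called 0 of all 15694 promoters.

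The other promoter windows on chromosome 9 were not called. The window of a short Zic1 transcript (19 cytosines) had 11.98% ± 3.48 in brown and 12.1% ± 1.43 in white, and the 5′-most Zic4 window (47 cytosines, over the end of Zic1) had 7.41% ± 3.69 and 5.43% ± 1.05, with limma adjusted p = 0.966 and 0.801.

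On chromosome 14, Zic5, which acts with Zic2 in neural crest and forebrain, differed mainly before its start. The intergenic fragment Zic5 −2.3 kb (chr14:122867191-122867269, 5 cytosines of 3 CpGs) had 68.9, 67.3 and 66.0% in BAT and 74.5% in BAT + NE, against 45.8, 47.5 and 51.9% in WAT and 42.8 and 49.3% in BWAT. All brown libraries were high and no white one came near them. The means were 69.2% ± 3.74 and 47.5% ± 3.44, a gap of 21.7 points, the widest of the 21 tested Zic fragments (logit difference 1.30, SE 0.16, limma adjusted p = 0.000938, 0.00194 to 0.00644 with 1 library left out, 0.0512 in the fit of 6 libraries). In the printed sequence the CpG of ggCGcc had 86.2% in brown and 65.9% in white, and the last one had 76.3% and 47.4%. The TaqI site at the left end, read on 1 strand, had 20.7% and 10.8%.

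Nearer to the gene, Zic5 −0.6 kb (8 cytosines in the Zic5 promoter) had 34.6, 31.0 and 50.6% in BAT and 43.9% in BAT + NE, against 21.4, 28.4 and 30.9% in WAT and 27.1 and 21.5% in BWAT. BAT day 4 and WAT day 6 were almost level. The fragment was called (40.0% ± 8.88 against 25.8% ± 4.26, logit difference 0.93, SE 0.24, limma adjusted p = 0.0351), but not with the same 8 cytosines tested as a promoter (adjusted p = 0.146). It was lost without any 1 of 7 libraries, all except BAT day 4 and WAT day 6, with adjusted p from 0.00837 to 0.0983 over the 9 fits.

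Inside Zic5 no fragment was called. The first exon at +1.6 kb had 1.06% in brown and 2.79% in white, the intron at +2.2 kb 10.3% and 10.5%, and the intron at +3.5 kb 82.8% and 79.3%. Low and high methylation thus lay side by side in the gene, in both lineages. Beyond its 3′ end, Zic5 +11.7 kb (15 cytosines) had 33.3, 31.1 and 36.2% in BAT and 31.0% in BAT + NE, against 16.8, 24.3 and 25.2% in WAT and 30.3 and 24.2% in BWAT. The groups did not overlap, BWAT day 4 came close to the lowest brown library, and the adjusted p was 0.0514 in limma, just outside the threshold. With BWAT day 4 left out it was 0.0302.

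Zic2, which is required for forebrain midline and neural crest formation, was more methylated in brown along its second part and downstream. The fragment Zic2 +3.7 kb (chr14:122877800-122878884, 58 cytosines from the second coding exon to the 3′ UTR) had 17.3, 16.99 and 18.3% in BAT and 16.2% in BAT + NE, against 8.89, 11.5 and 12.03% in WAT and 10.5 and 10.04% in BWAT. The brown libraries lay close together and above every white one (17.2% ± 0.845 against 10.6% ± 1.25, logit difference 0.77, SE 0.13, limma adjusted p = 0.00419, 0.00690 to 0.0225 with 1 library left out, 0.109 in the fit of 6 libraries).

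The difference was uneven along these exons. Divided by annotation after the values had been seen, the 12 cytosines of the second coding exon had 19.5% ± 0.339 in brown and 9.41% ± 1.87 in white. The 33 in the coding part of the last exon had 9.85% ± 0.875 and 8.16% ± 1.04, and there the groups overlapped. The 12 in the 3′ UTR had 35.6% ± 3.17 and 18.4% ± 2.19, and all 12 were higher in brown.

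Downstream, Zic2 +7.4 kb (chr14:122881919-122882205, 27 cytosines, intergenic) had 13.3, 19.3 and 20.6% in BAT and 18.1% in BAT + NE, against 6.39, 9.86 and 9.77% in WAT and 7.51 and 9.43% in BWAT. BAT day 0 was the lowest brown library and WAT day 0 the lowest white one. Brown averaged 17.9% ± 3.19 and white 8.59% ± 1.56 (logit difference 1.15, SE 0.13, limma adjusted p = 0.000499, 0.00117 to 0.00321 with 1 library left out, 0.0403 in the fit of 6 libraries). All 15 CpGs in capitals in the printed sequence had the higher mean in brown, from 7.92% against 6.39% at its last CpG to 33.9% against 10.02% at the CpG of position 122882092.

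Closer to its start, Zic2 +1.2 kb (29 cytosines of the first exon) had 5.61% in brown and 5.79% in white and was not called. Zic2 +2.0 kb (7 cytosines, the 3′ UTR of a second Zic2 transcript) had 14.5, 13.8 and 18.8% in BAT and 22.3% in BAT + NE, against 12.6, 12.5 and 9.05% in WAT and 9.25 and 10.3% in BWAT. Brown was higher in all 4 libraries, by little at days 0 and 4 (17.4% ± 3.98 against 10.7% ± 1.72, logit difference 0.75, SE 0.20, limma adjusted p = 0.0485). The call was lost without any 1 of BAT day 6, BAT + NE, WAT day 4, WAT day 6, BWAT day 4 and BWAT day 6, with adjusted p from 0.0416 to 0.123 over the 9 fits. The promoter window of a shorter Zic2 transcript, chr14:122876322-122877822 with 14 cytosines that belong to Zic2 +2.0 kb and Zic2 +3.7 kb, was called with 15.9% ± 1.93 in brown and 7.53% ± 0.421 in white (logit difference 1.11, SE 0.12, limma adjusted p = 0.00368).

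**Figure D3:**
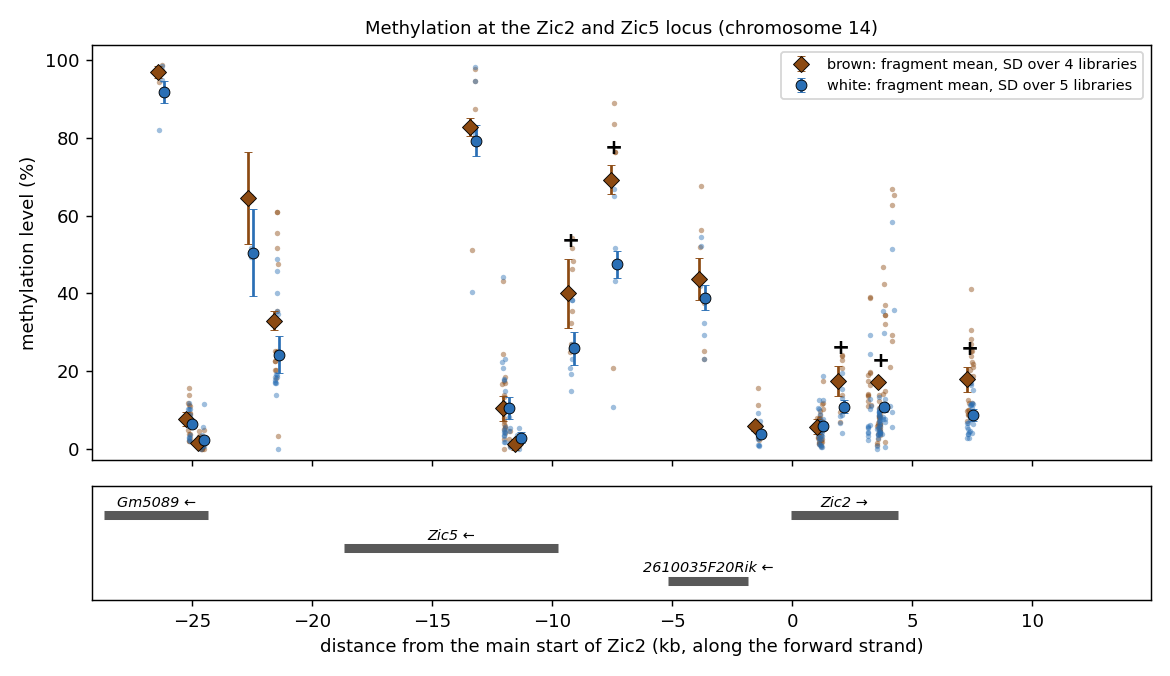
Methylation level (%) along the chromosome 14 locus against the distance from the main Zic2 start (kb), drawn as for chromosome 9. Fragments called higher in brown (+) lie before the Zic5 start, in the second part of Zic2 and downstream of it, and none of the fragments on this chromosome was called lower.

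**Figure D4:**
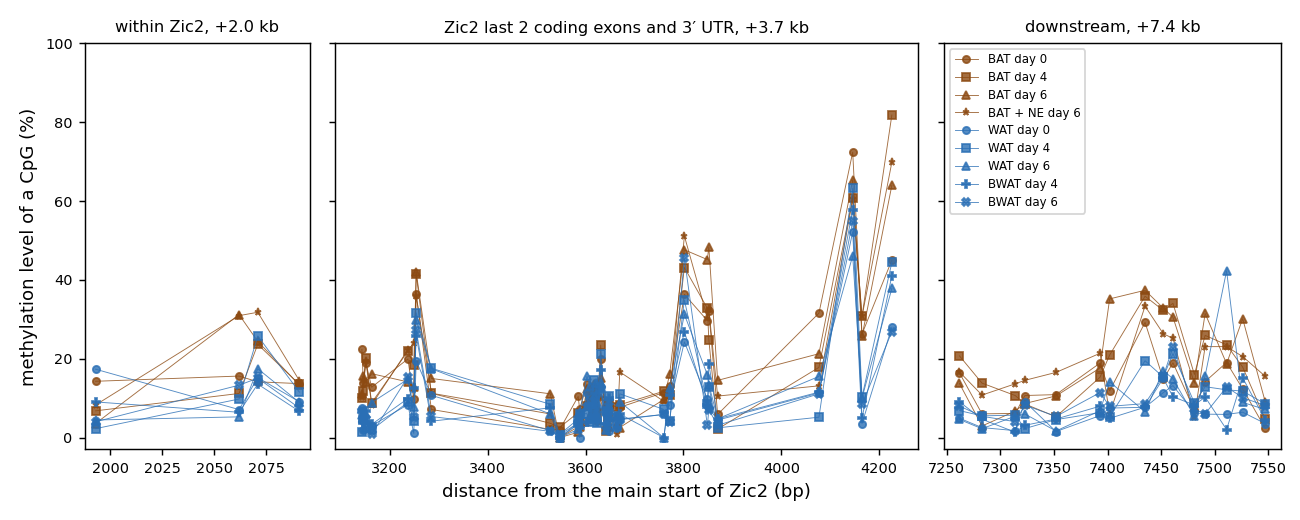
Methylation level (%) of each CpG in the 3 called Zic2 fragments against the distance from the main Zic2 start (bp), 1 line per library, brown and blue for the brown and white lineages. The brown lines run mostly above the blue ones at the second coding exon, at most CpGs of the 3′ UTR and downstream, and mix with them in the coding part of the last exon.

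As 1 value per gene, all 4 windows were higher in every brown library than in any white one. The lowest brown and highest white library were close at Zic5 (21.2 against 21.1%) and Zic1 (6.75 against 6.53%). How many of all windows were separated in this way was not counted. The test called 3 of the 4 higher in brown and 0 lower. Of all 23685 gene windows, 3.0% were called higher in brown and 6.04% lower. The median logit difference was 0.41 over the 4 and −0.01 over all windows. All 4 had an unadjusted p under 0.05, beside 5499 of all 23685. The windows of Zic1 and Zic4 share most of their cytosines and those of Zic2 and Zic5 a smaller part, so the 4 values are not independent.

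Zic2 had 16.1, 17.4 and 18.8% in BAT and 19.0% in BAT + NE, against 10.3, 12.5 and 13.4% in WAT and 11.1 and 11.3% in BWAT. It was the strongest of the 4 (17.8% ± 1.36 against 11.7% ± 1.21, logit difference 0.68, SE 0.07, limma adjusted p = 0.00124) and held with any 1 library left out. Zic5 averaged 23.0% ± 1.72 in brown and 19.0% ± 1.58 in white (0.35, SE 0.06, limma adjusted p = 0.0134), and without BAT day 0 or without WAT day 0 the adjusted p was 0.0539. Zic4 averaged 7.69% ± 1.24 and 5.34% ± 0.552 (0.48, SE 0.12, limma adjusted p = 0.0459), a call that was lost without any 1 library except BAT day 4, with adjusted p up to 0.136. The Zic1 window was not called, with 8.56, 6.75 and 6.82% in BAT and 8.26% in BAT + NE, against 5.52, 5.78 and 5.21% in WAT and 6.52 and 6.53% in BWAT (limma adjusted p = 0.0833). Gene bodies alone gave adjusted p = 0.00336 for Zic2, 0.0154 for Zic4, 0.895 for Zic5 and 0.979 for Zic1. In the fit of 6 libraries none of the 4 windows was called.

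At single cytosines the study's minimum of 10 percentage points was applied between BAT and WAT of the same day, without a test, since the table holds no read counts. Of the 391 Zic cytosines, 23 (5.88%) were higher in BAT at all 3 days, where 0.888% of all cytosines were, and 0 were lower, where 1.62% of all were. By day, 82, 73 and 79 were higher and 13, 14 and 23 lower at days 0, 4 and 6. Over all 838481 cytosines these counts were 58039, 66049 and 72103 higher and 78376, 79057 and 86145 lower. Of the 23, 5 lay on chromosome 9 and 18 on chromosome 14, with 6 in Zic2 +3.7 kb, 4 in Zic5 +11.7 kb and 3 in Zic2 +7.4 kb. Intergenic cytosines made up 10 of the 23 and 65 of the 391. In 39 cytosines (9.97%) all 4 brown libraries exceeded all 5 white ones, as in 1.48% of all cytosines. In 3 (0.767%) all brown libraries were lower, as in 2.30% of all. The gene counts overlap within a pair: Zic2 had 13 of the 23, Zic5 9, Zic4 5 and Zic1 2.

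Both strands of a CpG are read from different molecules. At the 159 Zic CpGs measured on both, the brown minus white differences of the forward and reverse cytosines had a Pearson correlation of 0.779, given as a description. All 27 forward cytosines that differed by at least 10 points had a difference of the same sign on the reverse strand. The difference between the strands within a library had an SD of 7.42 to 10.8 points, which is close to the minimum of 10 points set for a single cytosine.

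The differences were set beside the level and the CpG content of each fragment. Across the 21 tested fragments the mean level correlated with the number of CpGs around the fragment at r = −0.605 and the brown minus white difference at r = −0.559, as a description over fragments that share libraries. Where white cells had a level of 5 to 20%, the 11 Zic fragments had a median difference of 6.04 points and 45.5% were called higher in brown, beside 0.61 points and 9.37% for the 3670 fragments of that level in the table. At 20 to 50% it was 11.5 points and 50% of 4 Zic fragments, beside 0.277 points and 12.3% of 5659. Under 5% none of the 5 Zic fragments was called higher, beside 0.729% of 13720. At 50 to 100% the 1 Zic fragment had a difference of 3.49 points and was not called, beside −0.456 points and 2.78% of 44184.

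**Figure D5:**
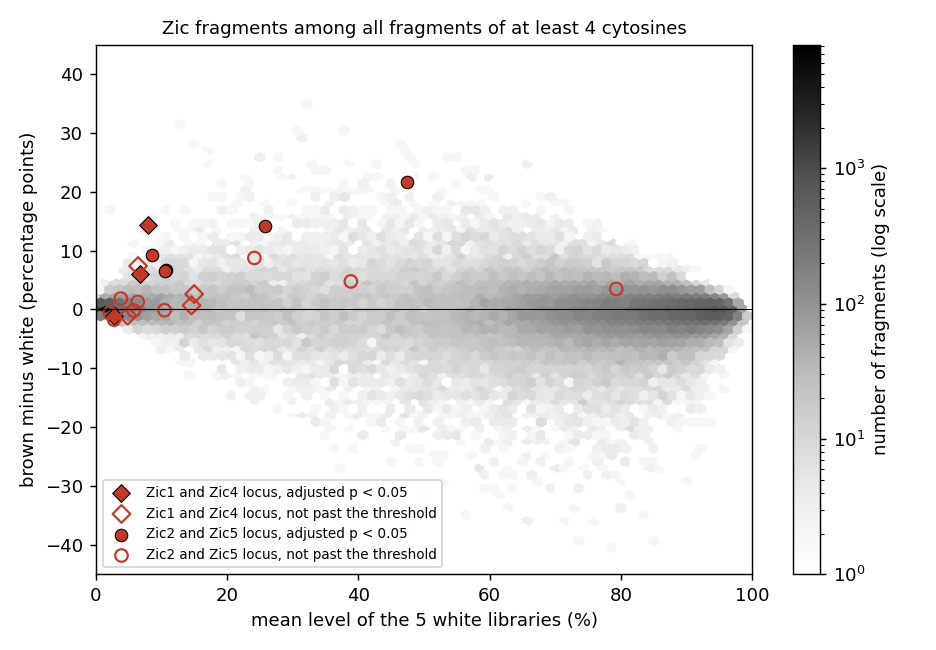
Brown minus white difference (percentage points) against the mean level of the 5 white libraries (%) for all 67233 fragments (grey, number per cell on a log scale) and the 21 Zic fragments (red, filled where past the limma test). The filled symbols above 0 sit at white levels of 6.81 to 47.5%, and the 1 called lower sits at 2.80%.

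No Zic fragment passed the test of differentiation. For the later days against day 0, with 1 coefficient shared by both lineages, none of the 21 fragments was called by limma, where 0.0550% of all fragments were called higher and 0.118% lower, and 3 of the 21 had an unadjusted p under 0.05, beside 5760 of all 67233. These were Zic1 −1.3 kb (logit difference 0.85, SE 0.20, unadjusted p = 0.00201, adjusted p = 0.232), Zic2 +7.4 kb (0.55, SE 0.16, 0.00583, adjusted 0.330) and Zic5 +2.2 kb (0.65, SE 0.25, 0.0268, adjusted 0.515). All were lowest at day 0 in both lineages. Zic5 +2.2 kb, in the intron that did not differ by lineage, had 7.36, 7.85 and 13.2% in BAT and 12.9% in BAT + NE, against 6.86, 8.74 and 13.3% in WAT and 9.91 and 13.6% in BWAT.

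Whether the change after day 0 differed between lineages was tested as an interaction. It was called in 0 of the 21 fragments and in 0.00149% of all, and 2 of the 21 had an unadjusted p under 0.05, beside 3094 of all. From day 0 to day 6, 59 of the 391 cytosines were at least 10 points higher and 43 lower in BAT (26.1% in all), and 54 were higher and 20 lower in WAT (18.9%), beside 17.1% and 14.99% of all cytosines.

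Norepinephrine was compared within pairs of 1 library each, with no test. BAT + NE differed from BAT day 6 by at least 10 points at 88 of the 391 cytosines (22.5%), 51 higher and 37 lower, beside 16.7% of all cytosines. BWAT differed from WAT at 52 (13.3%, 23 higher and 29 lower) at day 4, beside 14.4%, and at 62 (15.9%, 26 higher and 36 lower) at day 6, beside 13.9%. Over the 21 fragments BAT + NE minus BAT day 6 ran from −6.69 to 10.7 points, with 10 fragments up and 11 down. The widest rises were 10.7 points at Zic1 +2.0 kb and 10.4 at Zic1 +4.2 kb, both inside Zic1. At +2.0 kb BAT had 17.5, 15.6 and 8.67% at days 0, 4 and 6 and BAT + NE 19.3%. BAT day 6 was the lowest of the 9 libraries there. At +4.2 kb BAT day 0, without norepinephrine, was higher than BAT + NE (24.4 against 17.5%). BWAT minus WAT ran from −5.14 to 6.81 points at day 4 and from −9.46 to 4.39 at day 6.

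Genes related to Zic by family or function were read from the same fits. Among the Gli and Glis relatives, the other members of the zinc finger group, 1 of 7 gene windows was called higher in brown (Glis2, 31.6% against 29.6%, groups overlapping) and 1 lower (a short second Glis3 entry of 9 cytosines, 71.9% against 80.3%), and 0 of 8 promoters was called in either direction. Of 7 measured partners and targets in somite and neural crest, the window of Msx1, a homeobox repressor of the neural plate border, was higher in brown (17.04% ± 0.801 against 12.9% ± 0.816), and that of Myf5, a myogenic factor of the somite whose lineage gives rise to brown fat, was lower (77.1% ± 2.17 against 90.2% ± 1.49). Of the 7 promoters of this list 0 were called higher and 1 lower, that of Myf5. The Msx1 promoter was not called.

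Brown fat markers used beside Zic1 came next. Of 8 measured windows 0 were higher and 2 lower in brown, Ebf2, an early brown precursor factor (35.7% against 41.9%), and Mpzl2, a membrane protein enriched in brown fat (18.6% against 22.1%). Of 7 white and beige markers, 3 were higher, the homeobox genes Hoxc8 (20.3% against 12.6%), Hoxc9 (11.05% against 2.20%) and Shox2 (17.8% against 13.9%), and 2 lower, the T-box gene Tbx1 (13.7% against 21.1%) and the membrane protein gene Tmem26 (57.7% against 61.3%). Medians of the logit difference were −0.01 for the Gli and Glis windows, 0.04 for the somite and neural crest genes, 0.02 for brown markers and −0.09 for white and beige markers, beside −0.01 over all windows. The windows of Hoxc8 and Hoxc9 overlap. Of 10 promoters of brown markers 0 were called higher and 1 lower (Ebf2). Of 5 promoters of white and beige markers 1 was called higher (Hoxc9) and 1 lower (Tbx1). The promoters of Hoxc8, Shox2 and Mpzl2 were not called.

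Promoters of other cell types that the cultures could hold were examined as well. Of 3 endothelial promoters 1 was called lower in brown, that of Pecam1, an adhesion protein of endothelium (48.5% against 72.2%), of 7 muscle promoters 1 was lower (Myf5), and no haematopoietic promoter was measured. Their part in the Zic differences was not tested.

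The 5 gene windows outside the Zic loci whose levels over the 9 libraries correlated best with the Zic4 window were AC166933.1 (r = 0.969), E230013L22Rik (0.945), Runx2 (0.936), Gm2078 (0.931) and Cntn3 (0.926). They were the highest of 15014 windows whose SD over libraries was at least 0.5 times that of Zic4, and the coefficients are a description over 9 points. All 5 had BAT day 0 and BAT + NE as their highest 2 libraries, as Zic4 did. They were chosen by this correlation, so that a shared order of libraries is no further result. The Zic4 window includes Zic1 +4.2 kb, 17 of its 136 cytosines, where BAT day 0 (24.4%) and BAT + NE (17.5%) were also highest. In the called Zic4 promoters BAT day 0 was instead the lowest brown library.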

How the data were processed

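RRBS was performed by the authors with MspI and TaqαI digestion, size selection, bisulfite conversion and paired-end sequencing. The submitters' processing notes name mm9 and Bowtie (version not given in the sources used here). As deposited, the table gives the percent methylation of each autosomal CpG cytosine with at least 10 reads in all 9 libraries, 1 column per library, and no read counts, so that depth and intervals cannot be given and the study's Fisher's exact test of reads could not be run. It holds no columns of the authors' own comparisons. The RRBS end-repair step fills cut sites with unmethylated cytosine, which can lower levels there, and 22.5% of all cytosines and 58 of the 391 lay in MspI or TaqI sites.

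All 838481 cytosines lay on CpGs of NCBIM37. Levels of fragments (at least 4 cytosines, gaps of at most 300 bp), promoters (1000 bp before to 500 bp after a start, at least 2 cytosines, windows of a gene merged) and gene windows (10000 bp to each side, at least 4 cytosines) were means over cytosines. limma 3.58.1 in R 4.3.3 was run with default empirical Bayes moderation on log2((level + 1)/(100 − level + 1)) of the 9 libraries, with terms for lineage and day 0 against later, and Benjamini-Hochberg adjustment over all features. Tables were handled with Python 3.11.15 and pandas 2.3.3, and the fit was tested on simulated data.

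Named were all members, the fragments past the lineage test, those nearest to each main start, and, where fewer than 4 passed at a locus, the 4 widest differences, with listed genes that passed. Zic1 +4.2 kb, Zic5 +11.7 kb and Zic5 +2.2 kb, other fragments given with their values and the division of the Zic2 exons were added after the values were seen. The members and gene lists were chosen with earlier results of these data known.

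Alternatives were the percent scale, no day term, the 6 BAT and WAT libraries with day as a block, each library left out, no restriction-site cytosines, strands averaged, other cytosine minimums, gaps and window widths, and a minimum of 20 points.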

Additional observations from a re-analysis of the deposited data

Results flagged for a closer look

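Groups of 4 or 5 libraries were screened for a library far from the others with Dixon's criterion, which chance meets in about 1 of 20 groups. Of 64 groups, 2 met it. In the intergenic fragment Zic1 +13.8 kb, BAT day 4 stood at 23.5%, while the other 3 brown libraries had 14.9 to 16.3%. In the fragment Zic5 +15.3 kb, in an intron of Gm5089, BAT day 0 stood at 5.01%, while the other 3 had 8.24 to 8.88%. Neither fragment was called between lineages.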

How the results depend on the processing

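The 8 fragment calls between lineages became 2 in the fit of the 6 BAT and WAT libraries with day as a block, 5 with strands averaged to 1 value per CpG, and 5 to 8 with 1 library left out. The 4 promoter calls became 0 in the fit of 6 libraries, 2 without restriction-site cytosines (5 of the 7 promoters could then be tested) and 1 at a minimum of 4 cytosines (4 could be tested). The 3 window calls became 0 in the fit of 6 libraries and 1 to 3 with 1 library left out. The 23 cytosines past 10 points at all 3 days became 4 at 20 points, 11 with strands averaged and 38 to 42 with 1 of the days left out. After norepinephrine the counts at 20 points were 22 for BAT + NE, 9 for BWAT at day 4 and 10 for BWAT at day 6. Beyond the smaller number of libraries, days or features that these settings use, the cause was not tested. The counts for later days and for the interaction were 0 under all alternatives run. Over 32 named features and 446 alternative values, 58 lost a call, 5 gained one and 19 changed sign, all 19 at 4 features that were not called. With 1 library left out, the logit difference ran from −0.16 to 0.29 at Zic1 +2.0 kb (0.02 with all 9), from −0.085 to 0.20 at Zic5 +2.2 kb (0.0081), from −0.26 to 0.067 at Zic2 +1.2 kb (−0.062) and from −0.22 to 0.097 at the Zic1 promoter (−0.061). In the fit of 6 libraries it was −0.027 at Zic1 +2.0 kb and −0.020 at Zic5 +2.2 kb, where it was −0.024 with no day term. Leaving out BAT day 0 or WAT day 0 gave the same estimates, since the remaining day 0 library then sets the day term alone. Depth is unknown, and the 3 called promoters of Zic4 rest on 2 or 3 cytosines.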
